A study of Mus musculus with 24 samples.

Results

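Genes of the lysosome were followed in the left kidneys of wildtype mice in which urine outflow had been blocked by unilateral ureteral obstruction (UUO) or that had been sham-operated. The set holds 36 genes, taken by gene symbol as cathepsins and legumain, further proteases, glycosidases, lipid hydrolases and their partners, acid phosphatases, lysosomal membrane proteins, and regulators. All 36 were found among the 14407 genes of the deposited table, and all 36 passed the filter on low values that left 13127 genes for testing. The study has 24 RNA-seq libraries in 6 groups of 4. Both surgeries were combined with vehicle, with an early course and with a late course of istradefylline, an adenosine receptor antagonist. Groups are named by surgery and treatment, as in sham late or UUO early. All groups share the wildtype genotype and the left kidney, and the labels used here give no age, dose or day for either course. The labels do not say that each library came from a separate mouse, so p-values measure the spread between these libraries, which may be technical in part.

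Lysosomes are acidic organelles in which hydrolases break down proteins, glycans, lipids and nucleic acids delivered by endocytosis, phagocytosis and autophagy. Most soluble hydrolases are tagged with mannose 6-phosphate in the Golgi and carried to the lysosome by receptors, while heavily glycosylated membrane proteins such as LAMP1 and LAMP2 line its limiting membrane. Transcription factors of the MiT/TFE family, among them TFEB and TFE3, bind short CLEAR elements in the promoters of many lysosomal genes. In the kidney, proximal tubule cells are rich in lysosomes because they take up filtered proteins, and macrophages carry large amounts of cathepsins. UUO blocks urine outflow from a kidney and is a standard model of tubular injury, leukocyte influx and fibrosis.

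Values are FPKM, which are fragments per kilobase of transcript scaled to the mapped fragments of the library. Tests ran on log2(FPKM + 1) with limma over all 24 libraries and all 13127 genes, and a gene was called where its Benjamini-Hochberg adjusted p was at or under 0.05. The pseudocount makes log2 changes smaller than the ratio of the means for low genes. The depth of each library, estimated from the steps between low values, ran from about 7780000 to 12820000 fragments. Proximal tubule markers fell and leukocyte and fibroblast markers rose with obstruction, as values given beside the results show, and the bulk measurements cannot tell fewer cells of a type from less RNA per cell. All 12 proximal tubule markers were detected in each group, as the kidney label requires. UUO early replicate 4 stood apart from the other libraries. Its 6 skeletal muscle markers summed to 3230 FPKM, against 68.5, 162 and 3.11 FPKM in UUO early replicates 1, 2 and 3 and at most 6.95 FPKM in any library of the other groups. It also held the highest macrophage marker level and the lowest proximal tubule marker level, and UUO late replicate 4 came next on both. Leaving out UUO early replicate 4 or UUO late replicate 4 changed no member's call in any gene-level comparison with limma that uses that library. The scale of the values also matters for small changes: the median of all genes tested was 0.32 higher on the log2 scale in UUO vehicle than in sham vehicle, and a median-of-ratios scaling of the libraries moved it to 0.01.

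In obstructed kidneys given vehicle, 19 of the 36 lysosomal genes were higher than in sham kidneys given vehicle, 3 were lower, and 14 did not pass the test. In the same comparison 67% of all genes tested were called, 50.3% higher and 16.7% lower, so the number of members called was close to the background. The median log2 change of the members was 0.39, against 0.32 for all genes tested. What varied was the size of the change. Ctss, Ctsk, Cd68 and Ctsc rose more than 3 log2 units, most other members lay within 1 log2 unit of 0, and the mean levels of Neu1 and Glb1 were 0.455 and 0.551 times those of sham vehicle. Under the median-of-ratios scaling the members split into 15 higher and 15 lower, with Gusb, Acp2 and Grn no longer called and Lamp2 among the lower genes. The median log2 change was then 0.02 for the members and 0.01 for all genes tested. The shares of all genes given above belong to the values as deposited, so they are no background for this split. Together the 36 genes made up 0.765% ± 0.0758 (SD, n = 4) of the summed FPKM in sham vehicle libraries and 1.09% ± 0.131 (SD, n = 4) in UUO vehicle libraries. The summed FPKM of all genes was itself lower in UUO vehicle, with means of 350500 in sham vehicle and 316700 in UUO vehicle. Part of the larger share thus reflects a smaller base.

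**Figure D1:**
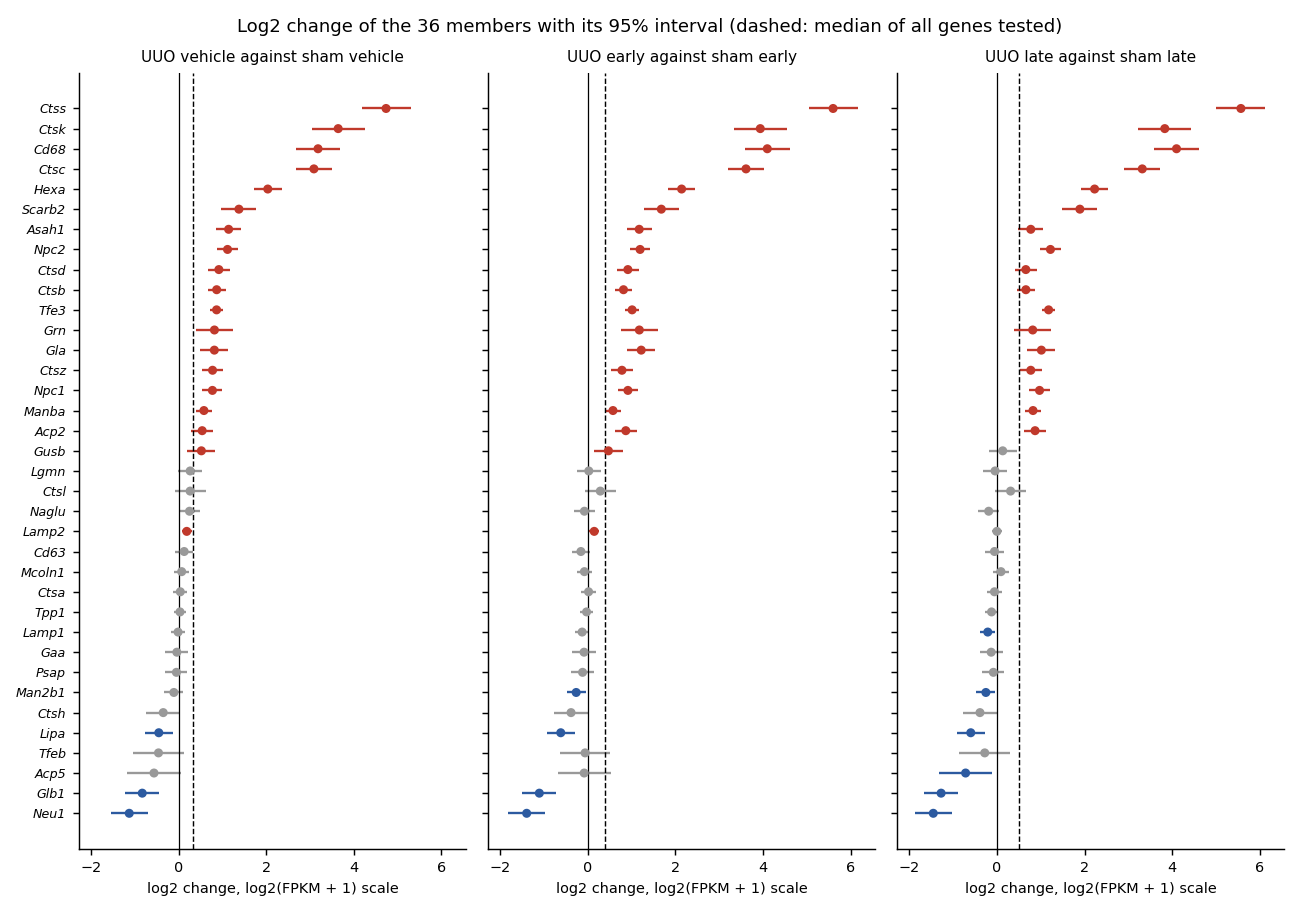
Log2 change of each of the 36 members (points) with its 95% interval (lines) on the log2(FPKM + 1) scale, in obstructed against sham kidneys given vehicle, the early course or the late course, 4 libraries per group. Red marks members called higher, blue members called lower and grey members that did not pass the test, and the dashed line is the median of all genes tested. Ctss is at the top of each panel and Neu1 at the bottom, and most intervals near the middle lie at or below the dashed line.

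Among the cysteine cathepsins and legumain, 5 of 8 genes were higher in UUO vehicle and none was lower. Of all genes tested 50.3% were higher and 16.7% lower. The counts of this and the later classes of members were not tested against these shares. Ctss encodes cathepsin S, which processes the invariant chain of MHC class II in antigen-presenting cells and stays active at neutral pH. It lies on chromosome 3, 95526786 to 95556403 (GRCm38), next to Ctsk. Ctss was at 10.5, 9.29, 5.22 and 7.27 FPKM in the sham vehicle libraries and at 135, 301, 271 and 275 FPKM in the UUO vehicle libraries. All UUO libraries lay above all sham libraries, and the lowest UUO value, in UUO vehicle replicate 1, was still far above the highest sham value. The log2 change was 4.74 ± 0.27 (SE, limma adjusted p = 9.59e-12). Ctss ran from 4.13 to 6.75 FPKM in sham early and from 229 to 508 FPKM in UUO early, and from 4.28 to 5.53 FPKM in sham late and from 218 to 435 FPKM in UUO late.

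Ctsk (chromosome 3, 95499256 to 95509362) encodes cathepsin K, the collagen-degrading protease of osteoclasts that is also made by activated fibroblasts and macrophages. Ctsk was at 1.43, 1.45, 1.97 and 1.45 FPKM in the sham vehicle libraries and at 19.8, 40.5, 28.6 and 40.2 FPKM in the UUO vehicle libraries. The groups did not overlap, and the UUO libraries spread over a wider range than the sham libraries. Ctsk changed by 3.64 ± 0.29 (SE, limma adjusted p = 1.36e-09) on the log2 scale. In the treated groups it ran from 1.08 to 1.75 FPKM in sham early and from 23.9 to 50.6 FPKM in UUO early, and from 0.910 to 1.63 FPKM in sham late and from 16.3 to 64.5 FPKM in UUO late. The 5 osteoclast markers of the table summed to between 1.35 and 1.56 FPKM in sham vehicle and between 6.02 and 12.7 FPKM in UUO vehicle, and the 8 fibroblast and pericyte markers rose from between 18.5 and 27.0 to between 257 and 505 FPKM. Their part in the change of Ctsk was not tested.

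Ctsc (chromosome 7, 88278085 to 88310888) encodes dipeptidyl peptidase 1, which activates the serine proteases of neutrophils, mast cells and cytotoxic lymphocytes. Ctsc was at 2.65, 4.17, 2.81 and 3.06 FPKM in the sham vehicle libraries and at 25.9, 36.8, 36.5 and 39.1 FPKM in the UUO vehicle libraries. Every UUO vehicle library was far above all sham vehicle libraries. The change was 3.09 ± 0.20 (SE, limma adjusted p = 5.08e-11) log2 units. In UUO early, replicate 4 reached 86.1 FPKM while the other libraries of the group lay between 37.0 and 42.8 FPKM. The 5 neutrophil markers summed to between 51.7 and 1449 FPKM over the libraries of UUO early, and their part in the Ctsc levels was not tested.

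The other cathepsins of this class changed less. Ctsb, an abundant endopeptidase and exopeptidase, rose from 97.5 ± 7.60 to 179 ± 10.9 FPKM (SD, n = 4), a log2 change of 0.87 ± 0.10 (SE, limma adjusted p = 1.85e-07). Ctsz, a carboxypeptidase, rose from 130.3 ± 17.5 to 224 ± 30.0 FPKM (SD, n = 4), a log2 change of 0.78 ± 0.12 (SE, limma adjusted p = 9.01e-06). Ctsl, a broad endopeptidase, was at 51.9 ± 18.4 FPKM in sham vehicle and 60.8 ± 10.4 FPKM in UUO vehicle (SD, n = 4) and did not pass the test (limma adjusted p = 0.176). Ctsh, an aminopeptidase, was at 58.9 ± 4.21 and 48.4 ± 16.2 FPKM (SD, n = 4), with a low value of 25.0 FPKM in UUO vehicle replicate 4, and did not pass either (limma adjusted p = 0.105). Exons of Ctsb and Ctsl overlap annotated exons of other genes on the opposite strand over 12.8% and 26.8% of their length, and exons of Hexa, Acp2, Ctsa and Lamp1, described below, do so with Tmem202, Ddb2, Pltp and Grtp1 over 12.8%, 12.6%, 10.5% and 9.31%. The strand setting of the authors' counting is not given in the sources used here, so the levels of these members are uncertain.

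Lgmn (chromosome 12, 102394084 to 102439813) encodes legumain, the asparaginyl endopeptidase that is abundant in proximal tubule lysosomes and matures several cathepsins. Lgmn was at 208, 305, 309 and 215 FPKM in the sham vehicle libraries and at 354, 294, 355 and 239 FPKM in the UUO vehicle libraries. The groups overlapped, because sham vehicle replicates 2 and 3 and UUO vehicle replicates 2 and 4 lay within the range of the other group. The change of 0.27 ± 0.13 (SE, limma adjusted p = 0.0826) log2 units did not pass the test. Leaving out 1 library gave changes from 0.17 to 0.38, the latter without UUO vehicle replicate 4 (limma adjusted p = 0.0135), and the median-of-ratios scaling made it -0.13 (limma adjusted p = 0.43).

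**Figure D2:**
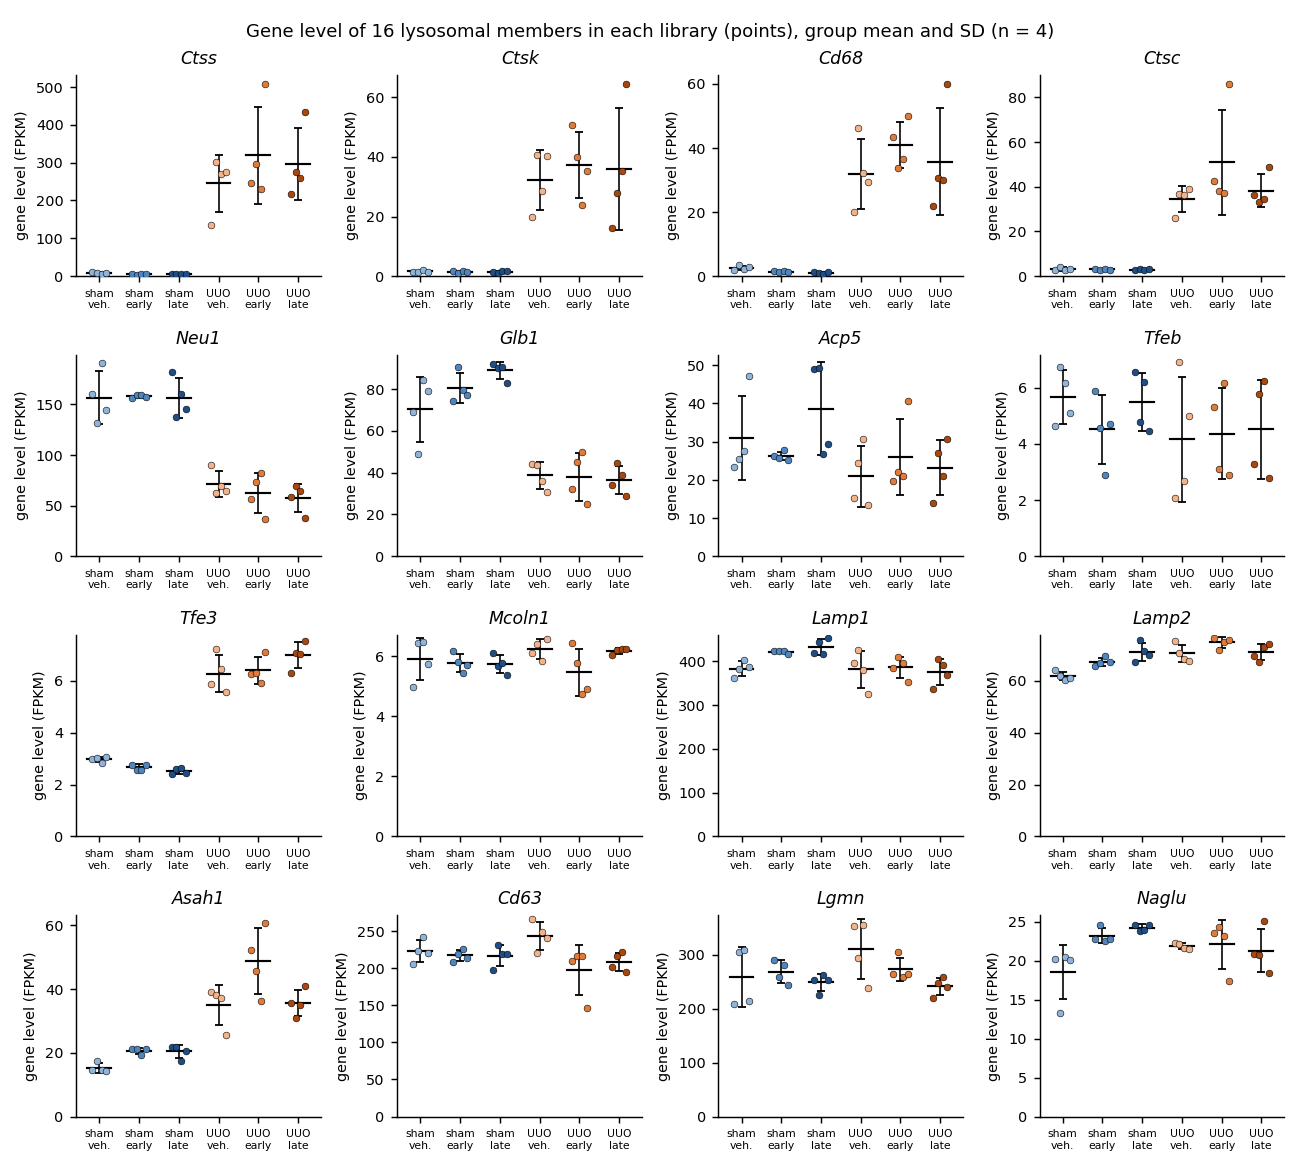
Gene level in FPKM (linear axis from 0) of 16 lysosomal genes in each library, with sham groups in blue and UUO groups in orange, 4 libraries per group. Points are libraries, the horizontal bar is the group mean and the whiskers are the SD. Ctss, Ctsk, Cd68 and Ctsc are near the floor in every sham library, Neu1 and Glb1 are lower in every UUO library than in the sham library with the same treatment that has the lowest value, and Lamp1, Lamp2 and Mcoln1 stay within a narrow range.

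Of the serine and aspartic proteases, 1 of 3 was called. Ctsd encodes cathepsin D, the main aspartic protease of lysosomes, and rose from 199 ± 11.3 to 380.3 ± 56.7 FPKM (SD, n = 4), a log2 change of 0.92 ± 0.12 (SE, limma adjusted p = 1.29e-06). It shares 34.4% of its exon bases with Gm49369, annotated on the same strand, so reads of these genes cannot be told apart over that stretch. Ctsa, the carboxypeptidase that protects beta-galactosidase and neuraminidase 1 in a complex, was at 67.4 ± 7.47 and 69.1 ± 3.65 FPKM (SD, n = 4). Tpp1, a tripeptidyl peptidase, was at 38.9 ± 1.91 and 39.8 ± 2.59 FPKM (SD, n = 4). The log2 changes of 0.04 and 0.03 for these genes did not pass the test (limma adjusted p = 0.67 and 0.686).

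Of 9 glycosidases 4 were higher, 2 lower and 3 not past the test. That is near the shares over all genes tested, 50.3% higher and 16.7% lower. Hexa, the alpha subunit of beta-hexosaminidase, which degrades GM2 ganglioside, rose most, from 18.5 ± 1.72 to 80.0 ± 16.1 FPKM (SD, n = 4), a log2 change of 2.04 ± 0.15 (SE, limma adjusted p = 4.31e-10). Gla, the alpha-galactosidase that is deficient in Fabry disease, was low in sham kidneys and rose from 1.71 ± 0.0416 to 3.82 ± 0.724 FPKM (SD, n = 4), a log2 change of 0.82 ± 0.15 (SE, limma adjusted p = 9.37e-05). Manba, a beta-mannosidase, changed by 0.58 ± 0.09 (SE, limma adjusted p = 1.27e-05). Gusb, the beta-glucuronidase, changed by 0.52 ± 0.15 (SE, limma adjusted p = 0.00558), but its groups overlapped, and under the median-of-ratios scaling it did not pass the test.

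Neu1 (chromosome 17, 34931253 to 34935953) encodes neuraminidase 1, the lysosomal sialidase. Neu1 was at 159.9, 132, 192 and 145 FPKM in the sham vehicle libraries and at 90.0, 62.5, 69.0 and 64.3 FPKM in the UUO vehicle libraries. Every UUO vehicle library was below every sham vehicle library. Neu1 fell by 1.13 on the log2 scale (SE 0.203, limma adjusted p = 6.15e-05), the lowest change among the members in this comparison. In the treated groups it ran from 156 to 159.8 FPKM in sham early and from 36.9 to 81.9 FPKM in UUO early, and from 137 to 182 FPKM in sham late and from 37.7 to 69.0 FPKM in UUO late, and the lowest values of all 24 libraries were those of UUO early replicate 4 and UUO late replicate 4.

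Glb1 (chromosome 9, 114401076 to 114474898) encodes lysosomal beta-galactosidase, the partner of Neu1 and Ctsa in the multienzyme complex. Glb1 was at 69.3, 48.9, 84.3 and 78.9 FPKM in the sham vehicle libraries and at 44.4, 43.9, 35.8 and 31.0 FPKM in the UUO vehicle libraries. The groups did not overlap, although sham vehicle replicate 2 came close to the UUO range. Glb1 fell by 0.83 on the log2 scale (SE 0.187, limma adjusted p = 0.0006). It ran from 74.3 to 90.7 FPKM in sham early and from 25.2 to 49.8 FPKM in UUO early, and from 83.0 to 92.3 FPKM in sham late and from 29.0 to 44.5 FPKM in UUO late. Thus, on the values as deposited, the sialidase and the galactosidase of the complex fell while the change of Ctsa, the protective subunit, did not pass the test. More members were lower under the median-of-ratios scaling, so this contrast may not hold on that scale. The 12 proximal tubule markers summed to between 17070 and 28660 FPKM in sham vehicle and between 3883 and 8855 FPKM in UUO vehicle, and 11 of 12 fell. Their part in the lower Neu1 and Glb1 levels was not tested.

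Naglu, the N-acetylglucosaminidase of heparan sulfate breakdown (chromosome 11, 101070012 to 101077672), did not pass the test in this comparison. Naglu was at 20.2, 13.3, 20.4 and 20.0 FPKM in the sham vehicle libraries and at 22.3, 22.2, 21.6 and 21.5 FPKM in the UUO vehicle libraries. All UUO vehicle values lay above the sham values, which included a single low library, replicate 2, and the change was 0.25 ± 0.12 (SE, limma adjusted p = 0.0633) log2 units. Gaa, the glycogen-degrading alpha-glucosidase, was at 21.9 ± 3.74 and 21.3 ± 3.30 FPKM, and Man2b1, an alpha-mannosidase, at 19.9 ± 1.96 and 18.4 ± 1.94 FPKM (SD, n = 4). Neither passed the test, with log2 changes of -0.04 and -0.11 (limma adjusted p = 0.801 and 0.371).

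Of the 5 genes for lipid breakdown and cholesterol export, 3 were higher and 1 was lower. Npc1 and Npc2 act in sequence to move cholesterol out of the lysosome, and both rose. Npc2, the soluble carrier, went from 24.4 ± 2.57 to 54.1 ± 5.59 FPKM (SD, n = 4), a log2 change of 1.12 ± 0.11 (SE, limma adjusted p = 3.02e-08). Npc1, the membrane transporter, went from 1.92 ± 0.0649 to 4.01 ± 0.470 FPKM (SD, n = 4), a log2 change of 0.77 ± 0.11 (SE, limma adjusted p = 4.05e-06). Asah1 (chromosome 8, 41340197 to 41374773) encodes acid ceramidase, which cleaves ceramide to sphingosine. Asah1 was at 14.7, 17.4, 14.5 and 14.2 FPKM in the sham vehicle libraries and at 39.2, 38.2, 37.1 and 25.7 FPKM in the UUO vehicle libraries. UUO vehicle replicate 4 was the lowest of its group and still above all sham vehicle libraries, and the change was 1.14 ± 0.14 (SE, limma adjusted p = 4.78e-07) log2 units. When the gene level was taken as the sum of its listed transcripts instead, the change of Asah1 was 0.64 and did not pass the test (limma adjusted p = 0.0686). Lipa, the acid lipase that releases cholesterol from its esters, was 69.0 ± 8.41 FPKM in sham vehicle and 50.4 ± 8.39 FPKM in UUO vehicle (SD, n = 4) and fell by 0.45 on the log2 scale (limma adjusted p = 0.0148), with overlapping groups. Psap, the precursor of the saposins that present lipids to their hydrolases, had the highest FPKM of the members. It was at 559.8 ± 66.8 and 540.4 ± 60.4 FPKM (SD, n = 4), and its change of -0.05 did not pass the test (limma adjusted p = 0.737).

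The acid phosphatases differed from each other. Acp2, the lysosomal acid phosphatase, rose from 10.4 ± 0.871 to 15.6 ± 1.85 FPKM (SD, n = 4), a log2 change of 0.54 ± 0.12 (SE, limma adjusted p = 0.000494), and did not pass the test under the median-of-ratios scaling. Acp5 (chromosome 9, 22126727 to 22135711) encodes tartrate-resistant acid phosphatase, a classical osteoclast enzyme. Acp5 was at 23.4, 25.4, 27.5 and 47.2 FPKM in the sham vehicle libraries and at 15.3, 24.4, 30.5 and 13.3 FPKM in the UUO vehicle libraries. The groups overlapped and 1 sham library, replicate 4, was far above the rest of its group. The change of -0.56 ± 0.29 (SE, limma adjusted p = 0.0944) log2 units did not pass the test, but leaving out UUO vehicle replicate 3 made it -0.76 (limma adjusted p = 0.032) and leaving out sham vehicle replicate 4 made it -0.34 (limma adjusted p = 0.321). Ctsk, also known from osteoclasts, rose in the same comparison.

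Among the membrane glycoproteins and receptors, 3 of 5 were higher and none was lower. Cd68 (chromosome 11, 69664213 to 69666153), the macrosialin of macrophage endosomes and lysosomes, changed most. Cd68 was at 1.79, 3.50, 2.09 and 2.77 FPKM in the sham vehicle libraries and at 20.0, 46.2, 32.2 and 29.3 FPKM in the UUO vehicle libraries. No library of a sham group reached the UUO range, and the change was 3.18 ± 0.25 (SE, limma adjusted p = 7.58e-10) log2 units. Cd68 ran from 1.18 to 1.72 FPKM in sham early and from 33.8 to 50.1 FPKM in UUO early, and from 0.723 to 1.31 FPKM in sham late and from 22.0 to 60.0 FPKM in UUO late. The 14 macrophage markers, which do not include Cd68, summed to between 58.2 and 71.7 FPKM in sham vehicle and between 819.5 and 1278 FPKM in UUO vehicle, and 14 of 14 rose. Scarb2, known as LIMP-2, the receptor that carries beta-glucocerebrosidase to the lysosome, rose from 9.07 ± 2.77 to 24.6 ± 2.89 FPKM (SD, n = 4), a log2 change of 1.38 ± 0.19 (SE, limma adjusted p = 2.72e-06).

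The structural membrane proteins moved little. Lamp1 (chromosome 8, 13159161 to 13175338) encodes a glycoprotein of the limiting membrane. Lamp1 was at 361, 383, 402 and 387 FPKM in the sham vehicle libraries and at 395, 427, 381 and 325 FPKM in the UUO vehicle libraries. The groups overlapped and the change was -0.01 ± 0.08 (SE, limma adjusted p = 0.907) log2 units. Lamp2 was at 64.2, 61.8, 60.4 and 61.1 FPKM in the sham vehicle libraries and at 75.3, 70.9, 68.5 and 67.8 FPKM in the UUO vehicle libraries. Lamp2 (chromosome X, 38401357 to 38456454), which is needed for the fusion of autophagosomes with lysosomes, thus separated the groups by a small step. Its change of 0.19 ± 0.06 (SE, limma adjusted p = 0.0058) log2 units was lower than the median of all genes tested, and it turned to -0.20 (limma adjusted p = 0.0135) under the median-of-ratios scaling, so its direction depends on the scale. Lamp1 was also lower under that scaling, with a change of -0.40 (limma adjusted p = 0.000542). Cd63 was at 206, 224, 242 and 220.0 FPKM in the sham vehicle libraries and at 266, 220.4, 248 and 241 FPKM in the UUO vehicle libraries. Cd63 (chromosome 10, 128900989 to 128912822), a tetraspanin of late endosomes and exosomes, overlapped between the groups and did not pass the test, with a change of 0.13 ± 0.10 (SE, limma adjusted p = 0.277) log2 units.

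The regulators did not move together. Tfe3 (chromosome X, 7762560 to 7775202), a transcription factor of the MiT/TFE family, rose with little spread. Tfe3 was at 2.99, 3.01, 2.84 and 3.07 FPKM in the sham vehicle libraries and at 5.90, 7.23, 6.46 and 5.56 FPKM in the UUO vehicle libraries. The lowest UUO vehicle library was well above the highest sham vehicle library, and the change was 0.87 ± 0.07 (SE, limma adjusted p = 2.77e-09) log2 units. Tfeb (chromosome 17, 47737030 to 47792419), its better known relative, varied widely. Tfeb was at 4.65, 6.75, 6.18 and 5.10 FPKM in the sham vehicle libraries and at 2.07, 6.93, 2.69 and 4.99 FPKM in the UUO vehicle libraries. The UUO vehicle libraries held both the lowest and the highest value of these groups, and the change of -0.46 ± 0.28 (SE, limma adjusted p = 0.152) log2 units did not pass the test. Leaving out 1 library gave Tfeb changes from -0.70 without UUO vehicle replicate 2 (limma adjusted p = 0.0315) to -0.24 without UUO vehicle replicate 1 (limma adjusted p = 0.46). Mcoln1 (chromosome 8, 3500457 to 3515232) encodes TRPML1, the calcium channel of the lysosomal membrane that acts upstream of TFEB. Mcoln1 was at 4.99, 6.45, 6.47 and 5.74 FPKM in the sham vehicle libraries and at 6.12, 6.39, 5.84 and 6.59 FPKM in the UUO vehicle libraries. The groups overlapped, with a change of 0.07 ± 0.08 (SE, limma adjusted p = 0.464) log2 units, which became -0.26 (limma adjusted p = 0.00328) under the median-of-ratios scaling. Grn, the precursor of the lysosomal granulins, rose from 25.3 ± 3.92 to 46.0 ± 11.5 FPKM (SD, n = 4), a log2 change of 0.82 ± 0.21 (SE, limma adjusted p = 0.00154), and did not pass the test under that scaling.

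Because TFEB and TFE3 bind CLEAR elements, the RefSeq promoter windows (GRCm38.p6, 250 bases before to 50 bases after each start) were searched for the letters TCACGTG on both strands. Windows were found for 32 of the 36 members. The letters stood in the windows of 9 of these 32 genes (28.1%), against 6.87% of the genes tested that have a window and 4.29% of all genes in the promoter table. Among members with a window, the letters stood in 2 of 16 called higher in UUO vehicle (Ctsd and Gla), in 6 of 13 that did not pass the test (Ctsa, Gaa, Lamp1, Lgmn, Mcoln1 and Naglu) and in 1 of 3 called lower (Glb1). The share of all genes tested that hold the letters is not given by call, so this split was not judged against a background. A match is a description of the letters and does not show that a factor binds there. The 120 bases before the start are printed 5′ to 3′ on the gene's strand, with matched letters in capitals. They show the members with matches that were followed library by library, beside Ctss and Neu1, the ends of the range of change, whose stretches hold no match. Overlapping matches on both strands form a single run of capitals in Mcoln1. The Lgmn stretch precedes a start that lies inside the gene as annotated, 102394084 to 102439813. The other Lgmn window, 102439679 to 102439978, covers the annotated 5′ end and holds no match. The stretches are Lamp1 at chr8:13159041-13159160 (plus strand), Mcoln1 at chr8:3500399-3500518 (plus strand), Glb1 at chr9:114400958-114401077 (plus strand), Lgmn at chr12:102439093-102439212 (minus strand, from the window that holds the match among 2 in the table), Naglu at chr11:101069974-101070093 (plus strand), Ctss at chr3:95526666-95526785 (plus strand) and Neu1 at chr17:34931133-34931252 (plus strand).
Lamp1: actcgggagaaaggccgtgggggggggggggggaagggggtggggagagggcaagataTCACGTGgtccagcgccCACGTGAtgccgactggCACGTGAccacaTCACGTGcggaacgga
Mcoln1: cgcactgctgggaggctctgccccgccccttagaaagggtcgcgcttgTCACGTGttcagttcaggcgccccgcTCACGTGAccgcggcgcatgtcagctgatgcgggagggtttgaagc
Glb1: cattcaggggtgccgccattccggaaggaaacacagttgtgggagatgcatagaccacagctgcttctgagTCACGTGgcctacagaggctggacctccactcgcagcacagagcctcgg
Lgmn: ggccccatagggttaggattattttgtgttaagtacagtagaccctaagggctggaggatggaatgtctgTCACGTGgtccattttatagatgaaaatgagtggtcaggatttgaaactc
Naglu: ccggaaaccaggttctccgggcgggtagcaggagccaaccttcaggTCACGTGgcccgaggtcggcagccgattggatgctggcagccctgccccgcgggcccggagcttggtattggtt
Ctss: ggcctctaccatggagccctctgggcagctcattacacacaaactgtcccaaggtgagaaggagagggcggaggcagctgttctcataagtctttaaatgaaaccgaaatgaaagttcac
Neu1: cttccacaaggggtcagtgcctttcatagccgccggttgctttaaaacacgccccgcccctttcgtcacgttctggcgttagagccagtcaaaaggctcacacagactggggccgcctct
Lamp1 carries 4 separate stretches of these letters within 62 bases of its start, more than the other members printed. Its level did not pass the test in UUO vehicle and was lower under the median-of-ratios scaling. Of the matched members not printed, Ctsd and Gla, called higher, hold 2 stretches each. Ctsa and Gaa, which did not pass the test, hold 2 and 1.

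The transcript table separated the isoforms of some members. Of the transcripts tested, 34.9% were called in UUO vehicle against sham vehicle, and of 73 transcripts of members 25 were called, or 34.2%, close to that background. The largest switch was in Ctss. Transcript Ctss-201 was listed at 0 in 9 of 12 sham libraries and at 1.21, 1.81 and 1.84 FPKM in the others, while it ran from 107 to 341 FPKM in the UUO libraries. Its share of the summed Ctss transcript FPKM ran from 0 to 42.9% in sham and from 54.8% to 80.2% in UUO libraries, without overlap (exact permutation test within treatment, two-sided, p = 5.83e-06, the smallest the design allows, adjusted p = 0.000352 over all 3865 genes with at least 2 transcripts at a mean of 1 FPKM). Ctss-201 averaged 0.405 FPKM over the sham and 209 FPKM over the UUO libraries. It thus met the minimum of 1 FPKM, and counted as the leading transcript, only through the UUO libraries. The share test for Ctss is therefore no independent support for the switch. Ctss-202 rose as well, from 7.78 to 57.8 FPKM in the vehicle groups (log2 change 2.68, limma adjusted p = 6.57e-06). The annotated exons of these transcripts differ by 3 bases at the start of exon 2 and by 3 bases at the end of exon 8. Few fragments can tell them apart, and a listed 0 can be a failed estimate.

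Lamp2 has 3 listed transcripts that end in different last exons, and their balance changed. Lamp2-201 took 78.7% of the summed FPKM in sham libraries on average (range 72.0% to 81.9%) and 65.3% in UUO libraries (range 58.0% to 71.9%). The share was lower in UUO (exact permutation test within treatment, two-sided, adjusted p = 0.000352). Lamp2-202 ran from 16.9% to 26.2% in sham and from 27.6% to 41.1% in UUO libraries, and its level rose from 53.2 to 86.9 FPKM between the vehicle groups (log2 change 0.71, limma adjusted p = 0.000192). Lamp2-203 ran from 1.03% to 1.88% in sham and from 0.255% to 0.911% in UUO libraries, and fell by 0.87 on the log2 scale (limma adjusted p = 0.00147). The level of Lamp2-201 did not pass the test (log2 change -0.13, limma adjusted p = 0.417). The small change of the Lamp2 gene level therefore stood beside opposite changes of its transcripts. The sources used here do not annotate which transcript encodes which LAMP-2 protein form.

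**Figure D3:**
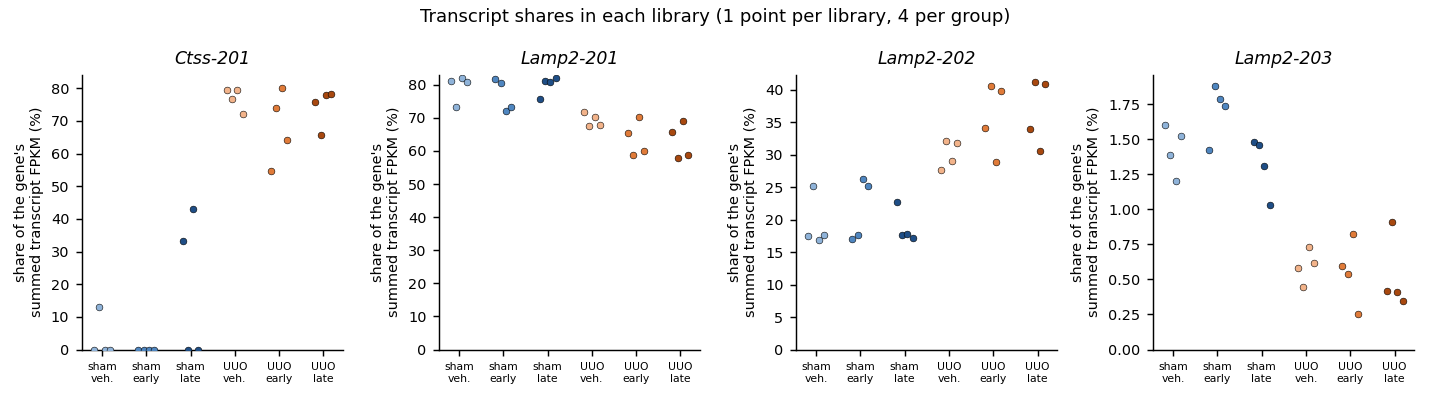
Share of the gene's summed transcript FPKM (percent, linear axis from 0) taken by Ctss-201 and by the Lamp2 transcripts in each library, with sham groups in blue and UUO groups in orange. Points are libraries, 4 per group. In each panel no UUO library overlaps a sham library, with Ctss-201 and Lamp2-202 higher and Lamp2-201 and Lamp2-203 lower after obstruction.

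The share of the leading transcript differed between UUO and sham libraries in 6 of 17 members with at least 2 transcripts at a mean of 1 FPKM or more, namely Acp5, Ctsc, Ctss, Grn, Lamp2 and Mcoln1. Of all 3865 such genes 13.6% were called. The minimum was taken over all libraries, so a transcript could reach it through 1 surgery only, as Ctss-201 did. Ctsa and Tfeb came next (exact permutation test, two-sided, adjusted p = 0.0502 and 0.0564). Mcoln1-201 took 68.4% of the Mcoln1 transcript FPKM in sham and 46.5% in UUO libraries (exact permutation test, two-sided, adjusted p = 0.000751), while Mcoln1-206 rose from 3.55 to 7.71 FPKM in the vehicle groups (log2 change 0.90, limma adjusted p = 0.0187). Acp5-201 took 59.3% in sham and 23.2% in UUO libraries (exact permutation test, two-sided, adjusted p = 0.00121), and fell by 1.72 on the log2 scale between the vehicle groups (limma adjusted p = 0.00536). Ctsc-201 took 91.3% and 87.0%, without overlap (exact permutation test, two-sided, adjusted p = 0.000352). The gene values of the deposited table are not the sums of the listed transcripts. The summed transcripts were 4.21 times the gene level for Lamp2, 3.5 times for Cd63 and 0.331 times for Ctsh on average, so a level of FPKM depends on which table it is read from.

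With the early course of istradefylline, 19 members were higher in UUO than in sham, 4 were lower and 13 did not pass the test. Of all genes tested 71.9% were called, 54.7% higher and 17.3% lower. Without UUO early replicate 4 the member counts were also 19 and 4. With the late course, 17 were higher, 6 were lower and 13 did not pass the test. Of all genes tested 75.6% were called, 59% higher and 16.5% lower. Without UUO late replicate 4 the member counts were also 17 and 6. The median log2 change of the members was 0.379 in the early and 0.222 in the late course, against 0.403 and 0.495 for all genes tested. The log2 changes of Ctss were 5.60 and 5.57, those of Cd68 4.10 and 4.10, those of Ctsk 3.94 and 3.83, and those of Ctsc 3.61 and 3.32 in the early and late courses. Neu1 fell by 1.39 and 1.45, Glb1 fell by 1.11 and 1.27, and Lipa fell by 0.62 and 0.60, all in log2 units. Without UUO early replicate 4 in the early course and UUO late replicate 4 in the late course, the log2 changes were 5.35 and 5.37 for Ctss, 4.00 and 3.82 for Cd68, 3.95 and 3.50 for Ctsk, 3.34 and 3.20 for Ctsc, -1.17 and -1.27 for Neu1, -0.93 and -1.17 for Glb1, and -0.46 and -0.59 for Lipa. Man2b1 was lower in both courses, with log2 changes of -0.26 and -0.25 (limma adjusted p = 0.0266 and 0.0319). Lamp1 (log2 change -0.21, limma adjusted p = 0.023) and Acp5 (log2 change -0.72, limma adjusted p = 0.0316) were lower in the late course. Under the median-of-ratios scaling the members split into 16 higher and 15 lower in the early course and 12 higher and 18 lower in the late course. Their median log2 changes were then -0.081 and -0.357, against 0.011 and 0.008 for all genes tested. The shares of all genes given above are no background for these scaled counts. On the values as deposited but without UUO late replicate 1, only 3 members were lower in the late course.

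No member was called in a comparison of istradefylline with vehicle within the same surgery. In UUO early against UUO vehicle 0.0152% of all genes were called, and 4 members had an unadjusted p under 0.05. The smallest p belonged to Asah1, at 52.2, 45.6, 36.3 and 60.9 FPKM in UUO early against 39.2, 38.2, 37.1 and 25.7 FPKM in UUO vehicle. The groups overlapped, with a difference of 0.46 ± 0.14 (SE, limma adjusted p = 0.379) log2 units and a 95% interval of 0.17 to 0.75. Cd63 came next, at 209, 217, 216 and 147 FPKM in UUO early against 266, 220.4, 248 and 241 FPKM in UUO vehicle. The UUO early values of Cd63 all lay below those of UUO vehicle, and replicate 4 was far below the rest, with a difference of -0.32 ± 0.10 (SE, limma adjusted p = 0.397) log2 units. Without UUO early replicate 4 these differences were 0.35 for Asah1 and -0.18 for Cd63 (limma adjusted p = 0.617 and 0.647).

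In UUO late against UUO vehicle 0.137% of all genes were called, and 2 members had an unadjusted p under 0.05. Lgmn was at 221, 248, 258 and 239 FPKM in UUO late, and the UUO vehicle values given above overlapped with them at the low end. The difference was -0.35 ± 0.13 (SE, limma adjusted p = 0.383) log2 units, with a 95% interval of -0.62 to -0.07. Cd63 was at 201, 216, 222 and 196 FPKM in UUO late, a difference of -0.22 ± 0.10 (SE, limma adjusted p = 0.498) log2 units from UUO vehicle, with overlapping groups. Without UUO late replicate 4 these differences were -0.34 for Lgmn and -0.19 for Cd63 (limma adjusted p = 0.537 and 0.722). Between UUO early and UUO late, 0.0305% of all genes and no member were called, with 2 members at an unadjusted p under 0.05. The courses share the same vehicle libraries, so their differences from vehicle are not independent of each other.

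In sham kidneys, the early course called 0.00762% of all genes and no member, with 5 members at an unadjusted p under 0.05. Asah1 was at 21.2, 21.2, 19.2 and 21.1 FPKM in sham early, above all sham vehicle libraries, a difference of 0.43 ± 0.14 (SE, limma adjusted p = 0.376) log2 units. Naglu was at 22.8, 24.6, 22.6 and 22.8 FPKM in sham early, a difference of 0.33 ± 0.12 (SE, limma adjusted p = 0.424) log2 units. Its values also lay above all sham vehicle libraries, of which replicate 2 was the low one. The late course called 1.42% of all genes, 179 of the 187 lower, and 9 members had an unadjusted p under 0.05. Lamp2 was at 67.2, 75.6, 71.6 and 70.1 FPKM in sham late, above every sham vehicle library, with a difference of 0.20 ± 0.06 (SE, limma adjusted p = 0.0766) log2 units. Naglu was at 24.6, 23.8, 24.0 and 24.6 FPKM in sham late, with a difference of 0.39 ± 0.12 (SE, limma adjusted p = 0.0901) log2 units. Under the median-of-ratios scaling Lamp2, Naglu and Tpp1 were called higher in sham late (limma adjusted p = 0.0263, 0.0473 and 0.0295), and with a pseudocount of 0.1 Cd68 was called lower (log2 change -1.23, limma adjusted p = 0.0246).

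The effect of obstruction on the members was not shown to differ between treatments. The interaction of the early course with surgery called 0.00762% of all genes and no member, and that of the late course called 0.0305% of all genes and no member. At an unadjusted p under 0.05 there were 2 members in the early and 5 in the late interaction. For Cd68 the difference between the obstruction effects was 0.92 ± 0.35 in both interactions (SE, limma adjusted p = 0.865 and 0.236), with a 95% interval of 0.19 to 1.64 log2 units. It was 0.82 without UUO early replicate 4 and 0.64 without UUO late replicate 4. Mean Cd68 was 2.54, 1.43 and 1.01 FPKM in sham vehicle, sham early and sham late. It was 31.9, 40.9 and 35.7 FPKM in UUO vehicle, UUO early and UUO late. The difference for Cd68 thus includes lower sham levels with each course, at low values, and is not a change in obstructed kidneys alone.

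Within the 12 libraries of obstructed kidneys, the members were set against a macrophage marker level, the mean log2(FPKM + 1) of the 14 markers. Of the 36 members, 10 rose and 2 fell with this level by Pearson r (permutation test with 100000 resamples, two-sided, Benjamini-Hochberg adjusted over all genes tested but the markers), against 12.3% of those genes called. Those that rose were Ctsb, Ctsc, Ctss, Hexa, Gla, Gusb, Npc1, Npc2, Acp2 and Cd68, and those that fell were Neu1 and Cd63. Gla had r = 0.952 and Spearman rho = 0.902 (permutation p = 2e-05 and 0.00016, adjusted p = 0.0147 and 0.242). For Ctss r was 0.926 and rho 0.776 (permutation p = 4e-05 and 0.00465, adjusted p = 0.0147 and 0.242). Neu1 ran the other way, with r = -0.885 and rho = -0.636 (permutation p = 0.00073 and 0.0295, adjusted p = 0.0177 and 0.313). Ctsk did not pass the threshold, with r = 0.593 and rho = 0.671 (permutation adjusted p = 0.161 and 0.294). By Spearman rho 0 of 36 members passed, as did 0 of all 13113 genes, and 13 members had an unadjusted permutation p under 0.05.

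The calls were lost without UUO early replicate 4 and UUO late replicate 4, the libraries farthest from the median of the marker level. Over the other 10 libraries 0 of 36 members passed, as did 0 of all 13113 genes, and 11 members had an unadjusted permutation p under 0.05. Without these libraries r was 0.839 for Gla, 0.831 for Ctss, 0.754 for Ctsc and -0.56 for Neu1 (permutation adjusted p = 0.371, 0.438, 0.465 and 0.555). Thus r stayed high for Gla and Ctss, while Acp5, Glb1 and Naglu, with r of 0.687, -0.687 and -0.744 over all 12, had r of 0.261, -0.177 and -0.0297. Within groups, as deviations from the group means, r was 0.948 for Gla, 0.93 for Ctss and -0.923 for Neu1. Of the 36 members 14 passed, against 19.0% of all genes. These calls cover all 12 libraries, UUO early replicate 4 and UUO late replicate 4 among them. They do not show whether the relation holds without these libraries. Values were exchanged across all 12 libraries and not within groups, so the permutation p can be too small.

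**Figure D4:**
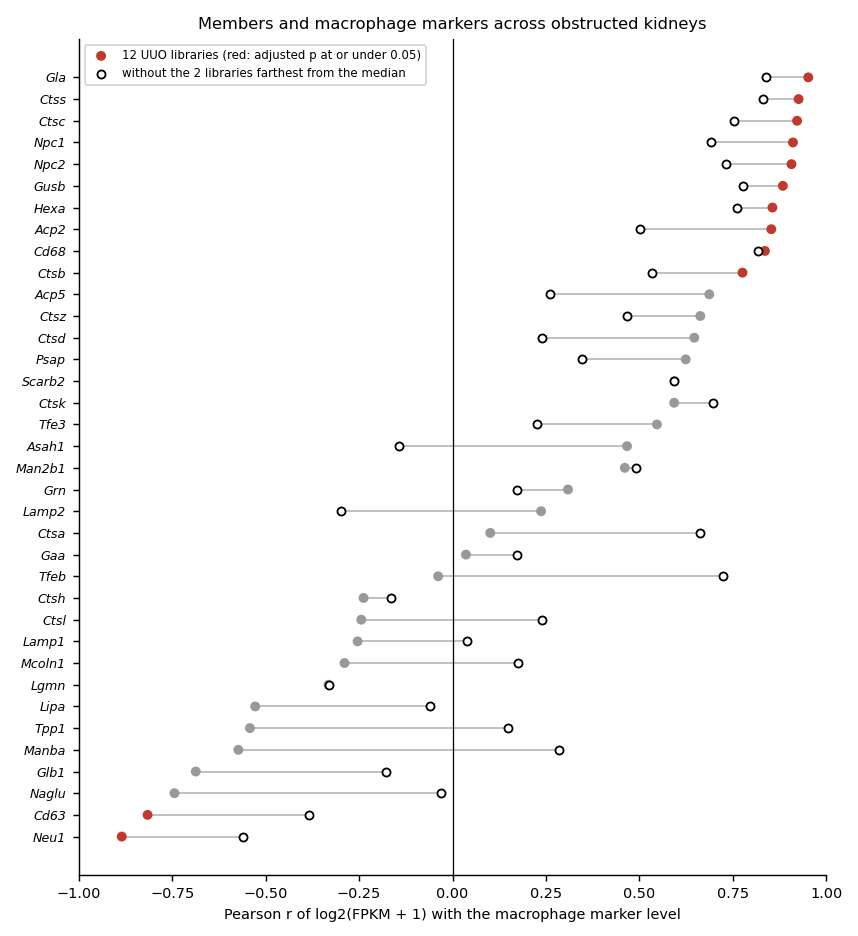
Pearson r of each of the 36 members with the macrophage marker level across the 12 UUO libraries (filled points, red where the permutation adjusted p was at or under 0.05) and without the 2 libraries farthest from the median (open points). Gla, Ctss and Cd68 have r of 0.839, 0.831 and 0.817 without these libraries, while Acp5, Glb1 and Naglu move towards 0.

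The proximal tubule marker level was related to the macrophage level with r = -0.909 over these libraries, and the members followed it with opposite signs. With the proximal tubule level 4 members rose and 8 fell by Pearson r, against 16.3% of all genes called, and 5 passed by rho, against 7.21%. Neu1 had r = 0.959 and rho = 0.93 (permutation p = 2e-05 and 3e-05, adjusted p = 0.00137 and 0.00342), and its r was 0.867 without the 2 farthest libraries. Acp2 had r = -0.938 and rho = -0.923 (permutation p = 2e-05 and 6e-05, adjusted p = 0.00137 and 0.00486), and its r was -0.817 without them. Glb1 had r = 0.802 and rho = 0.776 (permutation adjusted p = 0.0117 and 0.0575), and its r was 0.527 without them. Which of the marker levels a member follows cannot be told apart in these libraries.

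Other lysosomal genes, in lists of genes outside the 36, were also split in direction in UUO vehicle against sham vehicle. Of all genes tested 50.3% were higher and 16.7% lower in this comparison, with a median log2 change of 0.32. The counts of every list on the values as deposited are to be read beside these shares. Except for cystatins and galectins, the list medians lay below that of all genes, from -0.16 to 0.25. Of 46 further hydrolases and activators 17 were higher and 11 lower, with a median log2 change of 0.09. Lyz2, the lysozyme of myeloid cells, went from 15.2 ± 1.65 to 759 ± 309 FPKM (SD, n = 4), a log2 change of 5.47. Smpdl3b, a phosphodiesterase, and Plbd1, a phospholipase B-like protein, changed by 2.71 and 2.58. Of 31 membrane and transport genes 16 were higher and 8 lower, led by Laptm5 with a log2 change of 3.61, Litaf with 2.50 and Slc11a1, the metal transporter of phagosomes, with 2.21.

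Of 22 subunit genes of the proton pump that acidifies the lysosome, 2 were higher and 7 lower, with a median of -0.16, and with the same sum in every library 6 were higher and 6 lower. Tcirg1, the a3 subunit of osteoclasts and phagocytes, rose by 1.60, while Atp6v1c2 and Atp6v1g3, subunits known from intercalated cells, had log2 changes of -1.50 and -1.11. The 5 intercalated cell markers summed to between 69.1 and 77.9 FPKM in sham vehicle and between 23.8 and 49.7 FPKM in UUO vehicle, and their part was not tested. Of 24 enzyme delivery genes 8 were higher and 2 lower, with Lrp1, an endocytic receptor, at 1.92, Cltc, the clathrin heavy chain, at 0.68, and Gnptab, which starts the mannose 6-phosphate tag, at 0.66.

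Among 27 genes of nutrient sensing and MiT/TFE regulation 6 were higher and 5 lower. Mtor, the kinase that holds TFEB in the cytoplasm, fell by 1.65 on the log2 scale, Mlst8, its complex partner, rose by 1.12, and Ppp3ca, a catalytic subunit of calcineurin, rose by 0.76. Mlst8 varied widely in sham vehicle, at 3.24 ± 1.94 FPKM (SD, n = 4). Of 41 autophagy genes 10 were higher and 8 lower, and among them the receptors Nbr1 and Bnip3 fell by 1.27 and 0.81 while Optn rose by 0.69. Nbr1 varied widely in UUO vehicle, at 11.3 ± 7.95 FPKM against 23.4 ± 1.8 FPKM in sham vehicle (SD, n = 4). Cystatins are inhibitors of cysteine cathepsins or their relatives, and of 6 with values only 3 passed the filter on low values. All 3 were higher, among them Cstb from 129 ± 13.9 to 459 ± 20.2 FPKM and Cst3 from 146 ± 6.48 to 336 ± 24.6 FPKM (SD, n = 4). The other cystatin tested was at 0 in all 4 sham vehicle libraries, so it could not have come out lower. Of 7 galectin genes 6 were higher, with Lgals3, which marks damaged lysosomes, at a log2 change of 2.31, Lgals1 at 2.24 and Lgals3bp at 2.38. All the genes named from these lists were called (limma adjusted p from 3.28e-12 to 0.0137). The balance of these lists depended on the scale. Under the median-of-ratios scaling the lists other than cystatins and galectins had a median below 0, with 11 higher and 22 lower hydrolases and activators, 10 and 11 membrane and transport genes, 1 and 15 pump genes, 4 and 8 delivery genes, 1 and 12 nutrient sensing and regulation genes, and 4 and 19 autophagy genes. Ppp3ca did not pass the test under that scaling. The shares of all genes given for the values as deposited are no background for these scaled counts.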

How the data were processed

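RNA of left kidneys was sequenced in 24 stranded libraries, per the labels' protocols. The submitters' processing notes name cutadapt, HISAT2, StringTie and the build GRCm38, with no versions. The deposited gene and transcript tables hold FPKM values made by the authors. Depth was estimated from the steps of low values. Libraries were grouped by title (6 groups of 4). Genes with FPKM of at least 1 in at least 4 libraries were tested with limma 3.58.1 in R 4.3.3 on log2(FPKM + 1), with 1 mean per group, a variance trend, 18 residual degrees of freedom and Benjamini-Hochberg adjustment over all genes tested, and the code was tested on simulated data. Transcript shares were compared by exact permutation within treatment, and correlations by permutation, both adjusted over all genes with a value and not, as first planned, over the members (Python 3.11.15, scipy 1.17.1). Marker and gene lists were chosen by hand. The members and lists were chosen with earlier results of these data known. Members given library by library were the 4 with the largest and the 4 with the lowest change in UUO vehicle, Tfeb, Tfe3, Mcoln1, Lamp1, Lamp2, and the 2 with the smallest p in each comparison of a drug course with vehicle; of each other list, the 3 called genes with the largest change and a mean of at least 5 FPKM were named. Alternatives were a pseudocount of 0.1, no filter, other scalings, a replicate block, fewer groups or libraries, and, chosen after seeing the data, gene levels summed from transcripts.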

Additional observations from a re-analysis of the deposited data

Results flagged for a closer look

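Of 216 sets of 4 libraries (36 members in 6 groups), 20 held a library whose gap to its neighbour took up a share of the range above the critical value of Dixon's test, while chance gives about 1 in 20. The share was 9.26%. UUO early replicate 4 accounted for 6 of them, and these are given first. There Ctsc was the highest at 86.1 FPKM, Ctsd at 517.9 FPKM, Gusb at 19.2 FPKM and Acp5 at 40.7 FPKM, while Manba was the lowest at 13.5 FPKM and Cd63 at 146.8 FPKM. Skeletal muscle markers were highest in the same library, and their part in these values was not tested.

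In the other obstructed groups Hexa was high in UUO late replicate 4 at 105.5 FPKM, Mcoln1 was low in UUO late replicate 1 at 6.04 FPKM, Lgmn was high in UUO early replicate 2 at 304.9 FPKM, Tpp1 was high in UUO vehicle replicate 2 at 43.7 FPKM and Asah1 was low in UUO vehicle replicate 4 at 25.7 FPKM. In sham vehicle, replicate 3 was high for Ctsk at 1.97 FPKM and for Ctsz at 156.3 FPKM, and replicate 2 was low for Naglu at 13.3 FPKM and high for Asah1 at 17.4 FPKM. In sham early, Naglu was high in replicate 2 at 24.6 FPKM, Asah1 was low in replicate 3 at 19.2 FPKM, Lamp1 was low in replicate 4 at 416.3 FPKM and Scarb2 was high in replicate 1 at 9.10 FPKM. In sham late, Ctsc was low in replicate 1 at 2.68 FPKM.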

How the results depend on the processing

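Under median-of-ratios scaling 15, 15 and 18 members were lower in the vehicle, early and late comparisons of UUO with sham, and under the same sum in every library 2 were lower in the late comparison. The shares of all genes higher and lower under these scalings are not given here. In UUO vehicle the median-of-ratios scaling turned Mcoln1 to -0.26, Lamp2 to -0.20, Cd63 to -0.26, Lgmn to -0.13 and Naglu to -0.12, and the same sum turned Lamp1 to 0.14. In sham late, 3 members were called under median-of-ratios scaling and 1 with a pseudocount of 0.1, against 0. Leaving out 1 library gave 2 to 5 lower members in UUO vehicle (5 without UUO vehicle replicate 2 or 3 and 2 without replicate 4), 3 to 6 in UUO late, and a Lamp1 change of -0.067 to 0.064. With the macrophage level 0 of 36 members and 0 of 13113 genes passed by Spearman rho or without the 2 farthest libraries, against 12 members by Pearson r. The 6 members with changed transcript shares were 5 to 6 without 1 replicate number. Of 360 alternatives for single members 333 kept direction and side of the threshold, and the cause of the others was not tested. Counts over all genes called ran from 2 to 31 in UUO late against UUO vehicle (18 as reported), from 0 to 8 in UUO early against UUO vehicle (2), from 2 to 13 in UUO early against UUO late (4), from 1 to 7 in sham early (1), from 30 to 400 in sham late (187), and from 1 to 4 (1) and 1 to 90 (4) in the early and late interactions. Replicate numbers shared between groups did not pair the libraries: same-numbered libraries correlated with r from -0.119 to 0.436, 7 of 60 pairs over 0.1 (3 of them among the 4 pairs of UUO early with UUO late, at 0.219, 0.262 and 0.436, and the other at 0.0353), and 8 of 24 libraries were closest to their own number. With the replicate block 22, 23 and 23 members were called in the vehicle, early and late comparisons, as without it. Members at a few FPKM, such as Gla and Tfeb, rest on few fragments, and their number is not known because depth was only estimated.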
